A study of Caenorhabditis elegans with 9 samples.

Results

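The exons described here are the cassette exons of wild-type Caenorhabditis elegans, strain N2, as measured in RNA-Seq libraries of whole animals at the fourth larval stage (L4). A cassette exon is an internal exon that is either kept in the mature transcript or skipped together with its flanking introns. Of the 786 cassette exons deposited with the smg-1 comparison, 1 with inverted coordinates and 3 with fewer than 2 wild-type values were left out, and the other 782 exons, in 715 named genes, are all described. The series has 9 libraries from wild-type, smg-1 and smg-2 worms, and the 3 wild-type ones are used here, with no mutant contrast. The wild-type animals carry no allele and received no treatment, so nonsense-mediated decay is intact in them. The study names its replicates biological and its animals synchronized hermaphrodites, and poly(A) RNA was sequenced in paired reads. The tables hold no gene expression values, so the stage and tissue given in the labels were not checked against marker genes.

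Nonsense-mediated decay (NMD) is a surveillance pathway that degrades transcripts in which a ribosome meets a stop codon too early. An exon whose length is divisible by the size of a codon (a triplet exon) can be added or removed without moving the reading frame, whereas a non-triplet exon moves the frame of everything downstream. In worms with active NMD, steady-state inclusion therefore reflects both how often an exon is spliced in and how long each isoform survives, and these cannot be told apart in these libraries. Inclusion was expressed as percent spliced in (PSI), the share of the junction usage of an event that does not skip the exon. The table has a limit that shapes the values below. Mean PSI in the smg-1 libraries ran from 5.03% to 94.997% over the 782 exons, so a wild-type exon near 0% or 100% is listed here only where the mutant value was intermediate, and exons near an end of the scale in both genotypes are not described.

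Of the 782 exons, 324 were non-triplet and 458 triplet, and the Phase value of the table equalled the remainder of length divided by 3 in all 782. Exons ran from 9 nt to 75904 nt with a median of 102 nt. The longest interval, listed under arrd-18, spans 12 annotated genes. All 782 exons were preceded by AG, and 772 were followed by GT and 10 by GC. The annotation (Ensembl gene models on WBcel235) holds 617 of the exons, 522 of the skipping junctions, and both isoforms for 392 events.

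Junction reads are known only where some read skipped the exon, for 753, 696 and 742 exons in replicates 1, 2 and 3. Over these exons they came to 208127, 88649 and 154117, with medians of 134, 50 and 91.5 reads per exon. PSI correlated between libraries across exons with Pearson's r = 0.951 for replicates 1 and 3 (n = 779), 0.915 for 1 and 2 (n = 767) and 0.888 for 2 and 3 (n = 766). These values share the exons and are given as a description. Replicate 2 was thus the shallowest library and the one farthest from the other two, and the class medians and shares without it are given together after the results on frame and position.

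A small set of exons is shown with its sequence, because their lengths and stop codons recur in the results. They are exons of 8 genes chosen by name, which are 7 genes that the study followed up and the splicing factor gene rbm-39, and the exons of 30 nt or less (microexons) with at least 20 reads in every library that lay nearest to 0%, 50% and 100% inclusion. Sequences are from RefSeq's WBcel235 genome, on the transcribed strand. In the first 3 lines only the exon is given, and the first in-frame stop codon of the included isoform is in capitals. They belong to rsp-7 (chrII:10659787-10659862, 76 nt, plus strand), which encodes an SR-related splicing protein, rbm-39 (chrIV:1013075-1013140, 66 nt, plus strand), which encodes an RNA-binding splicing regulator, and aqp-2 (chrII:9259590-9259617, 28 nt, minus strand), which encodes an aquaporin.
rsp-7: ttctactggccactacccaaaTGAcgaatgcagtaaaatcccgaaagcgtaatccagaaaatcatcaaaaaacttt
rbm-39: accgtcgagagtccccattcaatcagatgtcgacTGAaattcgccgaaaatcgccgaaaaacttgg
aqp-2: atctgccTAAattggattctgatactct
The stop codon began at base 22 of the rsp-7 exon, base 35 of the rbm-39 exon and base 8 of the aqp-2 exon. Next are the exons of the genes chosen by name that hold no stop codon in frame, in capitals, with 12 bases of each flanking intron in lower case. They are the exons of fubl-1 (chrV:10238292-10238343, 52 nt, minus strand) and fubl-3 (chrX:17434917-17434986, 70 nt, plus strand), which encode KH-domain RNA-binding proteins, sfa-1 (chrIV:17108480-17108552, 73 nt, minus strand), which encodes the branch-point binding splicing factor, tnt-3 (chrX:7940797-7940824, 28 nt, minus strand), which encodes a troponin T, and dhhc-4 (chrIII:9864306-9864559, 254 nt, minus strand), which encodes a palmitoyl transferase.
fubl-1: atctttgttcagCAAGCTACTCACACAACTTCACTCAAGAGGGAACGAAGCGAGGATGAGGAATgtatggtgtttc
fubl-3: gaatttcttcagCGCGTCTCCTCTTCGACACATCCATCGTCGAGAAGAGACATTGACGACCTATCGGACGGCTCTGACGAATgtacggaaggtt
sfa-1: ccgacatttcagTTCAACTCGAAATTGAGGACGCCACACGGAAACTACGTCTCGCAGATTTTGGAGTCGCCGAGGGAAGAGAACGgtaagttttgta
tnt-3: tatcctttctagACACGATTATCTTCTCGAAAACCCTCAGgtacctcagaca
dhhc-4: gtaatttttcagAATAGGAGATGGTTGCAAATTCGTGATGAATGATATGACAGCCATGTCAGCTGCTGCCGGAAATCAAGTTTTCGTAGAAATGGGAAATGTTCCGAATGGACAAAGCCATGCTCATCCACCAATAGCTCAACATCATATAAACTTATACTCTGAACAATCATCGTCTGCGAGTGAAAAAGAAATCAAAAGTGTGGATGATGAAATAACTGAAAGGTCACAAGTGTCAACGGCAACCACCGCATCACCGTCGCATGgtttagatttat
The microexons follow in the same format, from the least to the most included. They lie in Y75B8A.24 (chrIII:12269554-12269574, 21 nt, minus strand), W07E11.1 (chrX:10101660-10101686, 27 nt, plus strand), rgr-1 (chrIII:9396931-9396948, 18 nt, plus strand), K02F3.2 (chrIII:847691-847714, 24 nt, plus strand), shk-1 (chrII:9767594-9767613, 20 nt, plus strand) and kvs-5 (chrIV:750037-750060, 24 nt, plus strand).
Y75B8A.24: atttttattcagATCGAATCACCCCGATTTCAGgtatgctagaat
W07E11.1: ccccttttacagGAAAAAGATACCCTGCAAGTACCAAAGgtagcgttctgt
rgr-1: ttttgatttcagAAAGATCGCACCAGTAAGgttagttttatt
K02F3.2: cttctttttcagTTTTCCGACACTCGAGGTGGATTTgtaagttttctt
shk-1: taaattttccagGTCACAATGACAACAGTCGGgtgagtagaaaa
kvs-5: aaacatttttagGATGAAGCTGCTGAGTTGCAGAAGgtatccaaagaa
Of these 6 microexons only that of shk-1 is non-triplet.

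Non-triplet exons sat near the ends of the inclusion scale in wild-type worms, and mostly at the high end, while triplet exons were spread over the whole scale. The median PSI of non-triplet exons was 79.6%, 82.3% and 80% in replicates 1, 2 and 3, against 45.7%, 42.2% and 47.4% for triplet exons. The 2 sets of medians did not overlap. The difference was 35.5 ± 4.03 points (SD, n = 3 libraries) and had the same sign in 3 of 3 libraries. An exact two-sided sign-flip permutation test over the libraries gave p = 0.25, which is the smallest value that 3 libraries allow, so this test cannot pass a threshold of 0.05 whatever the size of the difference. Without replicate 2 the difference was 33.4 points.

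Mean PSI was under 5% for 48 non-triplet and 48 triplet exons, and over 95% for 88 non-triplet and 22 triplet exons. Between 10% and 90% lay 130 of 324 non-triplet exons (40.1%) and 321 of 458 triplet exons (70.1%). In single libraries these shares were 38.6%, 36.4% and 38.6% for non-triplet exons and 71.3%, 61.9% and 69.1% for triplet exons, a difference of -29.6 ± 3.68 points (SD, n = 3 libraries; exact sign-flip permutation p = 0.25). Every library had the lower share in non-triplet exons. Exons with a wild-type mean under 5% or over 95% entered the table through their mutant values. When only the 576 exons with a wild-type mean of 5-95% were kept, the median differed by 20.1 points and the share by -14.8 points.

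**Figure D1:**
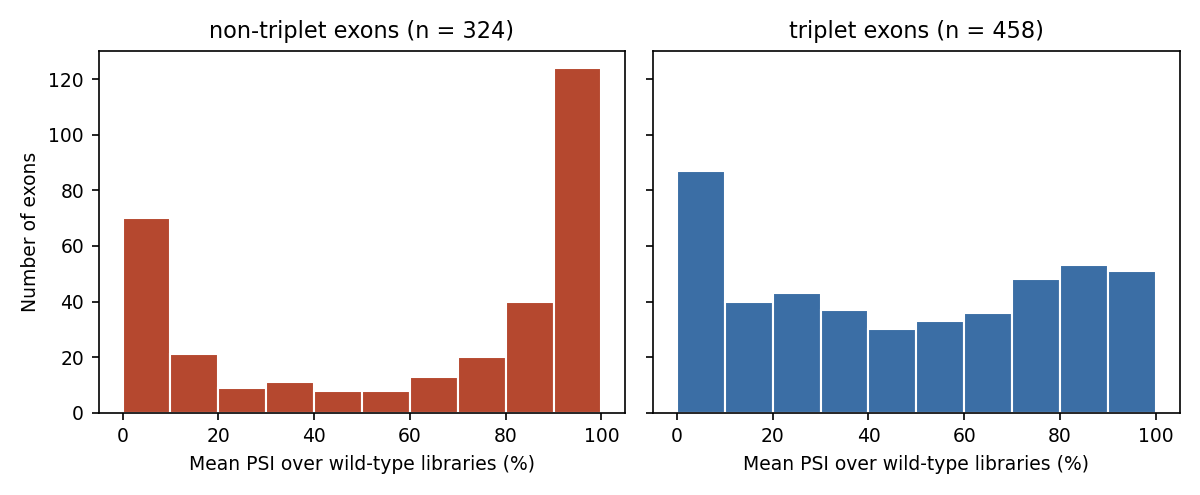
Number of exons (vertical axis) by mean PSI over the 3 wild-type libraries in steps of 10 points (horizontal axis), with 324 non-triplet exons on the left and 458 triplet exons on the right. Non-triplet exons pile up at both ends, with 88 over 95% and 48 under 5%, whereas 321 triplet exons lie between 10% and 90%.

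The share of non-triplet exons was lowest at intermediate inclusion. It was 41.7% (91 of 218) at a mean PSI of 0-20%, 20% (20 of 100) at 20-40%, 20.3% (16 of 79) at 40-60%, 28.2% (33 of 117) at 60-80% and 61.2% (164 of 268) at 80-100%. Binned by single libraries, the share was 23.4% ± 3.07 at 40-60% and 58.3% ± 2.14 at 80-100% (SD, n = 3), so the middle and the top of the scale differed by more than the spread between libraries. The bins at 20-40% and 40-60%, at 20.3% ± 1.68 and 23.4% ± 3.07 in single libraries, did not, although the bin at 40-60% had the higher share in every library.

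Both frame-moving Phase classes stood apart from the frame-keeping one. The library medians were 75%, 78.6% and 77.8% for the 175 exons of Phase 1 and 83.7%, 87.5% and 82.9% for the exons of Phase 2, against 45.7%, 42.2% and 47.4% for the 458 exons of Phase 0. Phase 2 was above Phase 1 in 3 of 3 libraries, with means of 84.7% ± 2.45 and 77.1% ± 1.88 (SD, n = 3). The share of exons with a mean PSI of 10-90% was alike in size in the frame-moving classes, 41.1% in Phase 1 and 38.9% in Phase 2. The exon nearest to 50% with at least 20 reads per library was in scrm-1 (79 nt; 41.3%, 32.1% and 59.3%) for Phase 1, in zer-1 (107 nt; 47.9%, 42.2% and 55.3%) for Phase 2 and in ifbp-1 (81 nt; 34.4%, 69.6% and 45.4%) for Phase 0. The ifbp-1 exon reached its mean of 49.8% through libraries that lay on both sides of it.

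Short exons were included less than long ones. The library medians averaged 26.2% ± 2.58 for the 61 exons of 30 nt or less, 30.1% ± 2.04 for the 132 exons of 31-60 nt, 56.5% ± 3.77 for the 268 exons of 61-120 nt, 78.3% ± 1.77 for the 225 exons up to 240 nt and 78.4% ± 4.33 for the 96 longer exons (SD, n = 3 libraries each). The shortest classes, up to 30 nt and 31-60 nt, and the longest classes, up to 240 nt and over 240 nt, differed among themselves by less than the spread between libraries added up, while the steps to 61-120 nt and from there to 240 nt exceeded it. Within each library the class of 31-60 nt was above that of 30 nt or less. The class over 240 nt was above that up to 240 nt in replicates 1 and 2 only. The share of non-triplet exons grew with length, from 13.1% (8 of 61) at 30 nt or less through 21.97%, 48.1% and 46.7% to 55.2% (53 of 96) over 240 nt.

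Length and frame could be read separately. Among triplet exons alone the median of mean PSI was 21.6% (n = 53), 34.4%, 49.1% (n = 139), 64.6% (n = 120) and 71.7% (n = 43) from the shortest to the longest class. Among non-triplet exons it was 59.5% (n = 8), 21.2% (n = 29), 75.9% (n = 129), 89.2% (n = 105) and 84.3% (n = 53). Non-triplet exons had the higher median in each class except 31-60 nt, where 14 of 29 lay under 20% and 8 over 80%. In every class from 31 nt upward, 34.5% to 40.3% of non-triplet exons and 64.2% to 73.8% of triplet exons had a mean PSI of 10-90%. All 8 non-triplet microexons lay between 10% and 90%.

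**Figure D2:**
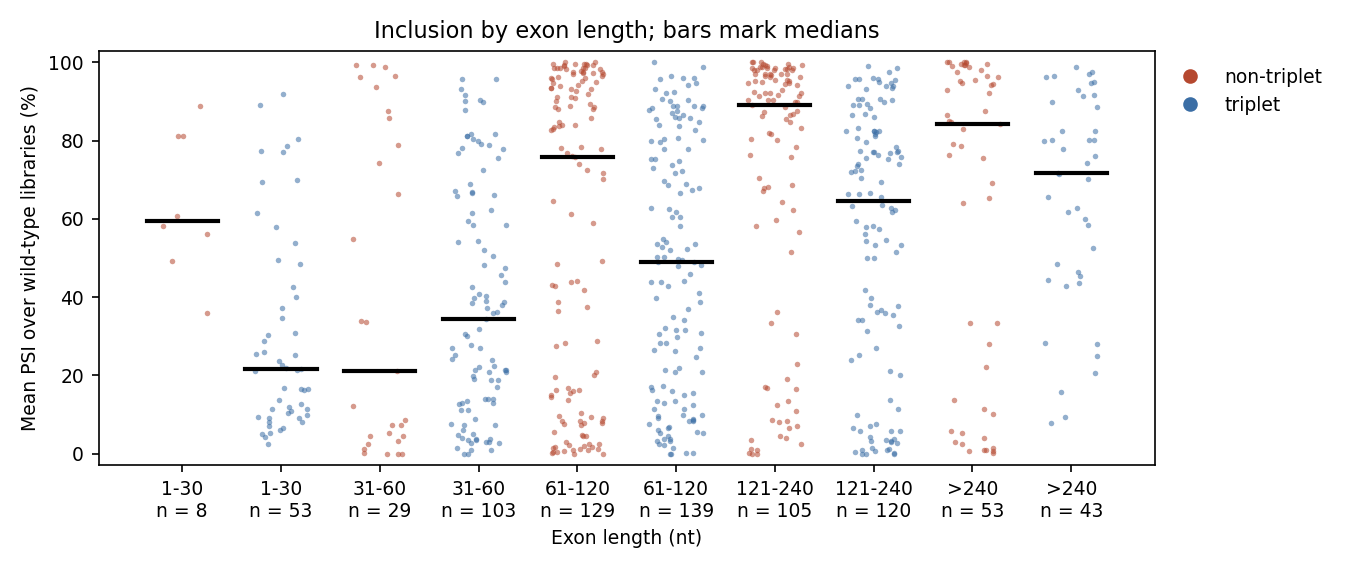
Mean PSI over the 3 wild-type libraries (vertical axis) by exon length in nt (horizontal axis), non-triplet exons left of triplet exons in each class. Each point is 1 exon and bars mark medians, which climb in triplet exons from 21.6% at 30 nt or less to 71.7% over 240 nt.

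Microexons were mostly triplet and mostly skipped, but a few were used in most transcripts. In Y75B8A.24 the 21-nt exon had a PSI of 5.04%, 0% and 2.60%. The 0% rests on 34 reads, which allows up to 8.82% by counting error alone. In W07E11.1 the 27-nt exon had 2.67%, 1.85% and 7.97%. Both stayed near the floor in all libraries. Near the middle, the 24-nt exon of K02F3.2 had 56.0%, 36.4% and 56.0%, and the 18-nt exon of rgr-1, a Mediator subunit gene, had 54.5%, 26.7% and 64.6%. In both genes replicate 2 was lowest. At the top were 2 potassium channel genes, with 91.1%, 92.9% and 92.0% for the 24-nt exon of kvs-5 and 87.5%, 90.9% and 88.4% for the 20-nt exon of shk-1. The spread of these top exons, SD 0.860 and 1.77, was below the counting SD of 3.27 and 5.12 that their reads give.

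The shortest exon with many reads was the 9-nt exon of clp-1, a calpain gene, at 80.2%, 68.2% and 82.6% on 1278, 516 and 816 reads. It adds 3 residues to a protein of 780. Microexon values depend on how inclusion reads are weighted, since an included exon has 2 junctions and a skipped one has 1. Their median was 15.1% with inclusion reads halved and 41.5% with them doubled.

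The isoform with the longer reading frame prevailed for most non-triplet exons. Each coding exon was placed in its annotated transcript, translated with and without it, and classed by which isoform encodes the longer protein. The dhhc-4 exon, at a mean PSI of 65.4%, is not classed, because no stop codon was found in frame with it removed. The study reports that inclusion of this exon shortens the protein. Among non-triplet exons whose inclusion gives the longer protein (n = 181), PSI had library medians of 93.3%, 94.0% and 93.1%. Among non-triplet exons whose skipping gives the longer protein (n = 85) they were 5.04%, 2.70% and 3.69%. These 2 sets lay at opposite ends of the scale in all libraries.

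That isoform made up over 50% of junction usage for 238 of 266 non-triplet exons (89.5%) and over 90% for 165 of them (62.0%). Mean PSI was over 95% for 75 of the 181 exons and under 5% for 45 of the 85 exons. Such exons entered the table through their mutant values, and the shares were not taken again without them. For the 383 triplet exons whose inclusion gives the longer protein, PSI had library medians of 52.2%, 51.2% and 54.5%. For the 51 triplet exons whose skipping gives the longer protein, all through a stop codon, the medians were 3.28%, 1.61% and 3.77%. These 51 triplet exons thus had a level close to that of the 85 non-triplet exons of the same class. Of the 51, 32 had a mean PSI under 5% and entered the table in the same way. In the 87 non-triplet exons with both isoforms annotated the longer isoform had a median share of 83.04%, against 93.4% over all 266, and whether the annotation favours abundant isoforms was not tested.

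**Figure D3:**
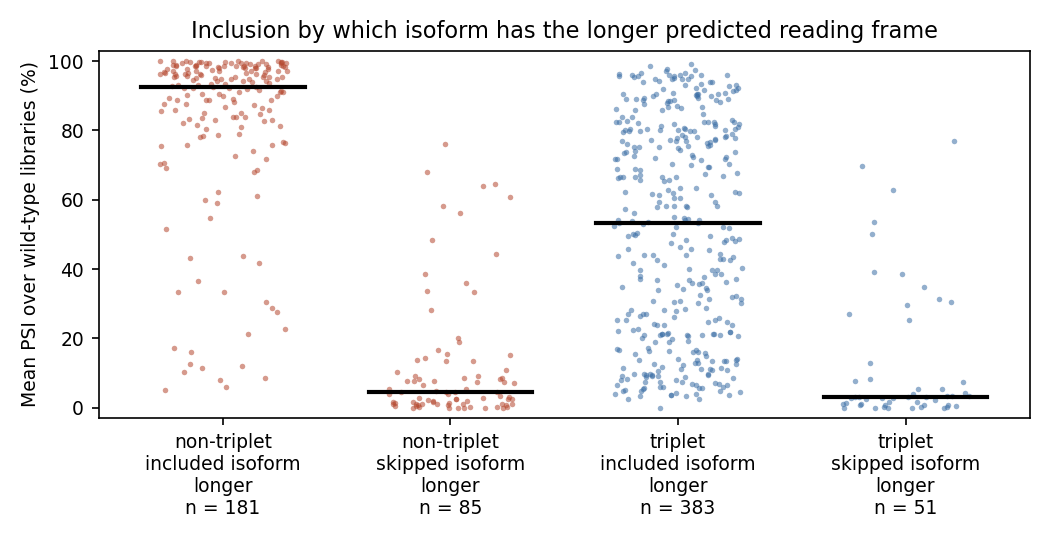
Mean PSI over the 3 wild-type libraries (vertical axis) for coding exons grouped by length class and by the isoform with the longer predicted reading frame, with 181 and 85 non-triplet exons on the left and 383 and 51 triplet exons on the right. Bars mark medians, which lie at 92.6% and 4.50% for non-triplet exons and at 53.3% and 3.21% for triplet exons.

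Triplet exons with a stop codon in frame formed a set of low inclusion that held several splicing factor genes. Of the 54 such exons, 39 had a mean PSI under 20% and 33 under 5%. These 33, with the 3 exons named next among them, entered the table through their higher mutant values. The count under 5% thus depends on that limit of the table. The 216-nt exon of uaf-1, the large subunit of the factor that recognises the 3' splice site, had 4.42%, 3.92% and 4.02%. The 186-nt exon of rsp-4, an SR protein gene, had 3.22%, 1.82% and 4.14%, and the 93-nt exon of rsp-8, another SR protein gene, had 3.98%, 1.57% and 4.33%. All 3 stayed under 5% in every library. Stop codons did not always go with a low level, since the 108-nt exon of nhr-65, a nuclear hormone receptor, had 63.4%, 53.7% and 71.4%, with predicted proteins of 398 and 401 residues with and without it.

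Non-triplet exons at intermediate inclusion were often the next to last exon of their transcript. Of the 69 non-triplet exons in that position, 40 had a mean PSI of 10-90% (57.97%), against 57 of the 197 non-triplet exons farther upstream (28.9%). In single libraries the shares were 52.2%, 55.9% and 57.97% for next to last exons and 29.9%, 26.2% and 29.4% for earlier exons, so they did not overlap. Triplet exons showed 72.0% (36 of 50) in the next to last position and 69.8% (268 of 384) farther upstream. With both isoforms annotated the non-triplet shares were 76.9% of 39 next to last exons and 54.2% of 48 earlier exons.

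Without replicate 2 the order of these classes was the same, except between the 2 longest length classes. The mean of the library medians was then 27.6%, 31.3%, 55.6%, 77.6% and 75.95% from the shortest to the longest exons, and 76.4%, 83.3% and 46.4% for Phase 1, Phase 2 and Phase 0. It was 93.2% and 4.37% for non-triplet exons whose inclusion and whose skipping gives the longer protein, and 53.3% and 3.39% for triplet exons of these classes. The share of non-triplet exons at 10-90% was 55.1% in the next to last position and 29.7% farther upstream. The share that was non-triplet was 21.7% at a PSI of 40-60% and 59.4% at 80-100%. Among the gene lists described below, the median that moved most was that of receptor and kinase genes, at 55.7% without replicate 2 and 61.4% with it.

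The isoform with the shorter reading frame prevailed for 20 non-triplet exons with at least 20 reads in every library, and 13 of them were next to last exons. These were 24.5% of the 53 next to last exons of that depth, against 5.69% of the 123 earlier ones. In mtm-3, a myotubularin gene, the 335-nt exon had 4.69%, 24.4% and 5.07%, and inclusion gives 1006 residues against 965 for skipping. Replicate 2 stood well above the other 2 there. In kin-1, which encodes the catalytic subunit of protein kinase A, the 262-nt exon had 36.2%, 32.2% and 31.9%, for proteins of 404 residues with it and 388 without it. In ttn-1, which encodes titin, the 68-nt exon had 5.13%, 13.7% and 6.52%, for 15188 and 15160 residues. These proteins differ little in length, while in unc-132 the 265-nt exon had 3.88%, 4.2% and 9.51%, and its inclusion gives 501 residues, the longer of the 2 proteins.

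The exons of the genes chosen by name, all but rbm-39 followed up in the study, covered the whole scale. The rsp-7 exon, shown above with its stop codon, had 7.02%, 7.94% and 10% on 570, 315 and 380 reads, with 137 predicted residues for inclusion and 452 for skipping. The rbm-39 exon had 2.83%, 3.36% and 3.77%, with 49 residues for inclusion and 580 for skipping. Both were low in all 3 libraries, with SDs of 1.53 and 0.471 points beside counting SDs of 1.39 and 0.965. The sfa-1 exon had 96.3%, 95.9% and 93.7% on 457, 218 and 381 reads, with 699 residues for inclusion and 236 for skipping. The fubl-1 exon had 83.9%, 84.1% and 89.6% (589 and 20 residues). The fubl-3 exon had 84.4%, 84.4% and 61.4% (641 and 44 residues) on 64, 45 and 70 reads. Replicate 3 was thus low for fubl-3 and high for fubl-1, and without it the mean of fubl-3 lies where fubl-1 does in the other 2 libraries.

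Between these ends lay the exons of tnt-3, aqp-2 and dhhc-4. The 28-nt tnt-3 exon had 65.5%, 65.7% and 51.3% on 757, 335 and 435 reads, and its 2207-nt exon had 60.8%, 70.2% and 60.8%. The 28-nt aqp-2 exon had 57.8%, 60% and 50.8%, with proteins of 285 and 290 residues for inclusion and skipping. The dhhc-4 exon had 63.9%, 65.7% and 66.7%, an SD of 1.40 points. In par-3, a cell polarity gene that the study also assayed but that was not among the genes chosen by name, the 173-nt non-triplet exon had 18.7%, 13.1% and 36.7% and the 147-nt triplet exon 81.7%, 94.3% and 83.3%. Among the exons of tnt-3, aqp-2 and dhhc-4, the tnt-3 microexon had an SD of 8.28 points, over its counting SD of 2.27, with replicate 3 below the other libraries.

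**Figure D4:**
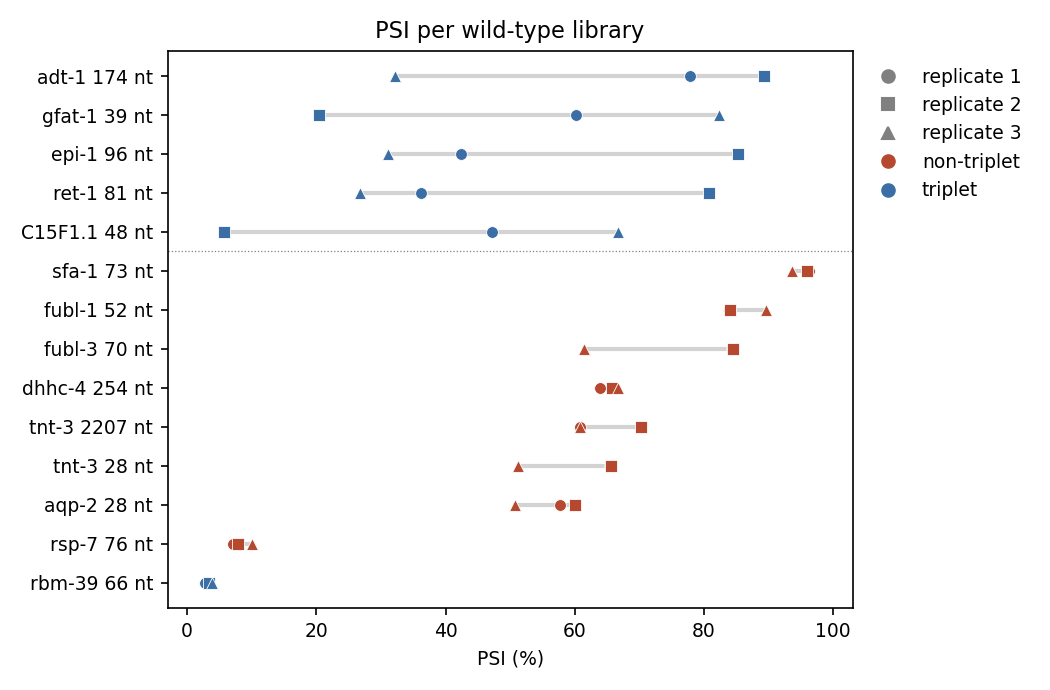
PSI in percent (horizontal axis) of single exons in wild-type replicates 1, 2 and 3 (circle, square, triangle), in red for non-triplet and blue for triplet exons. Below the dotted line are the exons of 8 genes chosen by name, from rbm-39 near 3% to sfa-1 near 95%, and above it the 5 exons with the largest SD among those with at least 20 reads in every library, in which replicates 2 and 3 are the extremes.

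The 10 exons with the most junction reads were the best measured. The 176-nt exon of rps-22, a ribosomal protein gene, had 0.99%, 0.89% and 0.89% on 28598, 15659 and 24228 reads, an SD of 0.0577 points, and its inclusion gives 48 residues against 130 for skipping. The 97-nt exon of lec-9, a galectin gene, had 0.70%, 1.63% and 0.77%. The 98-nt exon of gta-1, a GABA transaminase gene, had 99.9%, 99.6% and 99.7%, and the 344-nt exon of nol-56, a nucleolar protein gene, had 99.2%, 99.1% and 99.3%. These 4 exons are non-triplet and lay within 2 points of an end of the scale in every library. The remaining non-triplet exon of the 10, 49 nt long and in the untranslated leader of a chromosome IV gene without a short name, had 74.3%, 77.97% and 70.97%.

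The other 5 exons of high depth are triplet, and none lay within 5 points of an end. The 57-nt exon of grl-7, a ground-like domain gene, had 83.0%, 79.3% and 81.4%, and the 51-nt exon of ifb-2, an intestinal intermediate filament gene, had 63.1%, 56.5% and 55.4%. The 72-nt exon of F33D4.6 had 35.3%, 26.9% and 32.3%, the 24-nt exon of pqn-52 33.0%, 37.2% and 20.7%, and the 63-nt exon of F13G3.10 9.28%, 7.18% and 12.2%. Read numbers of grl-7 (3267, 275 and 2519) and F33D4.6 (2502, 119 and 2204) were far lower in replicate 2 than its depth alone gives, while their PSI differed little.

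In the gene lists that follow, the highest and lowest exon are those among exons known to have at least 20 reads in every library. Exons that no read skipped in a library have unknown reads there and could not be chosen as highest. Genes for RNA binding and splicing proteins were the list with the most non-triplet exons, 13 of 22, beside 41.4% over all 782 exons. Their median PSI was 76.4% beside 58.3% over all exons. Of the 22, 6 lay under 20% and 9 over 80%, beside 218 and 268 of all 782 exons. The deepest were the exons of rsp-4, of hrpk-1, an hnRNP K gene, and of tos-1. The 44-nt hrpk-1 exon was the highest, at 96.8%, 95.9% and 97.1%, with 397 residues for inclusion and 84 for skipping. The 67-nt tos-1 exon had 74.5%, 76.6% and 77.2%. The 64-nt exon of tiar-1 was the lowest, at 1.26%, 0.34% and 0.44%, and its inclusion shortens the predicted protein. Exons of etr-1 (87.0%, 95.9% and 90.1%), ptb-1 (84.6%, 69.7% and 82.5%) and hrpr-1 (95.6%, 96.6% and 96.6%) were also included in most transcripts. The median SD of the list was 1.54 points beside 4.50 over all exons, and its median depth was 1132 reads beside 260.

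Muscle and cytoskeletal genes differed in level although both lists were mostly triplet, as were 58.6% of all exons. The 18 exons of sarcomere and attachment genes, 3 of them non-triplet, had a median of 68.4%. Of these, 16 lay between 10% and 90%, beside 57.7% of all exons and 70.1% of triplet exons. The 33-nt exon of deb-1, the vinculin gene, had 83.1%, 88.7% and 73.5%, the 330-nt exon of mel-11, a myosin phosphatase subunit, was highest among exons of that depth at 92.96%, 83.7% and 92.7%, and the 68-nt ttn-1 exon given above was lowest. The 2160-nt exon of unc-89, the obscurin gene, had 91.6%, 100% and 92.7%, but its reads in replicate 2 are unknown. The 27 exons of cytoskeleton and junction genes, 4 of them non-triplet, had a median of 26.4%. In gei-4 the 69-nt exon had 91.8%, 95.6% and 89.7%, the highest of the list, while the 87-nt exon of the same gene had 11.8%, 14.4% and 10.7%. The 141-nt exon of pat-12 had 29.6%, 61.7% and 23.01%, with replicate 2 far above the others. The 154-nt exon of viln-1, a villin-like gene, had no inclusion read among 237, which allows a share of up to 1.27%.

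Ion channel and neuronal genes had mostly triplet exons of low to intermediate inclusion and few reads. For the 37 exons of channels and pores, 9 of them non-triplet, the median PSI was 31.9% and the median depth 113 reads. The 48-nt exon of lgc-22, a ligand-gated channel gene, had 14.8%, 28.5% and 13.4%, the 60-nt exon of stim-1, the calcium store sensor, 81.6%, 77.1% and 84.6%, and the 114-nt exon of egl-19, the L-type calcium channel, was lowest among exons of that depth at 4.12%, 10% and 2.04%, while exons with fewer reads in twk-46 and best-6 had lower means of 1.15% and 4.44%. For the 37 exons of synaptic and neuronal signalling genes, 7 of them non-triplet, the median was 43.6%, beside 48.3% for all triplet exons. Of these, 34 lay between 10% and 90%, beside 57.7% of all exons and 70.1% of triplet exons. The 153-nt exon of unc-43, the CaM kinase II gene, had 38.9%, 37.7% and 43.1%. The 57-nt exon of unc-16, a kinesin adaptor gene, had 3.94%, 2.82% and 3.45%. The 74-nt exon of npr-5, a neuropeptide receptor gene, was highest at 86.8%, 93.8% and 85.5%, and the 201-nt exon of ags-3 lowest at 1.45%, 0% and 1.72%, where the 0% rests on 29 reads and allows up to 10.3%.

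Of the remaining lists, transcription and chromatin genes (29 exons, 10 non-triplet) had a median of 71.8%. Over all exons the median was 58.3% and 41.4% were non-triplet. The 203-nt exon of hif-1, the hypoxia-inducible factor, had 14.5%, 15.9% and 9.98%, the 48-nt exon of blmp-1 had 67.1%, 56.1% and 63.6%, the 173-nt exon of zip-3 was highest at 98.6%, 98.4% and 98.9%, and the 311-nt exon of lin-40 lowest among exons of that depth at 11.6%, 6.12% and 12.97%. The 113-nt exon of vab-23, with fewer reads, had a lower mean of 0.29%. Receptor and kinase genes (21 exons, 7 non-triplet) had a median of 61.4%. The 125-nt exon of mak-1 had 74.6%, 83.9% and 70.4% and the 483-nt exon of wnk-1 76.7%, 76.4% and 80.4%. The 243-nt exon of mlk-1 was highest at 80.5%, 95.2% and 90.4%, and the 58-nt exon of ckc-1 lowest at 9.28%, 0% and 6.29%, with 0 of 49 reads in replicate 2, which allows up to 6.12%. Matrix, cadherin and lectin genes (20 exons, 1 non-triplet) had a median of 50.5%, and the share of a library's junction reads that fell on each exon was, in replicate 2, a median of 0.424 times that in the other 2 libraries, beside 0.887 over all exons.

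Exons of 1 gene were often included at different levels. The table had 52 genes with 2 or more exons, and the highest and lowest mean PSI within a gene differed by a median of 42.4 points, by over 50 points in 22 genes and by under 10 points in 9. In mvk-1, a mevalonate kinase gene, 4 triplet exons had 96.2%, 97.2% and 93.0% (135 nt), 76.6%, 87.2% and 76.5% (279 nt), 30.2%, 18.9% and 35.01% (327 nt), and 9.12%, 7.12% and 8.92% (63 nt). The 4 did not overlap in any library. In egl-8, a phospholipase C beta gene, the 84-nt exon had 80.7%, 90.1% and 81.0%, the 243-nt exon 43.8%, 47.3% and 39.7%, the 36-nt exon 38.3%, 30.6% and 45.0%, and the 138-nt exon 6.25%, 4.17% and 10.9%. The 243-nt and 36-nt exons overlapped, and the other 2 stood apart from them.

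In best-22, a bestrophin gene, the 42-nt exon had 72.2%, 80% and 65%, the 33-nt exon 15.3%, 14.9% and 20.6% and the 70-nt exon, which is non-triplet and holds a stop codon, 7.27%, 8.97% and 11.6%. In denn-4 the 212-nt exon had 88.3%, 87.9% and 93.9%, the 40-nt exon 5.04%, 2.33% and 2.08%, both non-triplet, and the 39-nt triplet exon 50.9%, 26.3% and 74.3%. The triplet exon of denn-4 thus varied most between libraries. The collagen gene col-99 had means of 90%, 59.4% and 20.8% for exons of 36, 45 and 72 nt, the C-type lectin gene clec-199 means of 95.7%, 42.5% and 30.1% for exons of 33, 30 and 42 nt, and the 3 exons of lgx-1 means of 86.0%, 82.5% and 71.9%. The 90% of col-99 and the 95.7% of clec-199 include values of 100% on unknown reads. The other exons of these 2 genes had only 8 to 17 reads in replicate 2. In unc-80, a subunit of the sodium leak channel, exons of 132, 36 and 27 nt had means of 54.6%, 34.4% and 13.8% on only 66, 42 and 73 reads in all.

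The spread between replicates fell with depth, but less than counting predicts. The counting SD is the SD that a binomial draw of the same reads would give. Median SD was 9.61 points at 1 to 9 reads in the shallowest library (84 exons), 4.83 at 20 to 49 reads (182 exons) and 2.24 at 200 or more (90 exons), beside median counting SDs of 12.5, 4.64 and 1.29. The ratio of the SD to the counting SD had a median of 1.11 at 20 to 49 reads and 1.79 at 200 or more. Over all exons the median SD was 4.50 points, 3.17 for non-triplet and 5.61 for triplet exons. The spread depended on replicate 2. Between 2 libraries the median SD was 2.57 points without replicate 2, against 4.08 without replicate 1 and 3.64 without replicate 3. Without replicate 2 the same depth classes had median SDs of 4.93, 2.83 and 1.58 points. The ratios were then 0.905 at 20 to 49 reads and 1.32 at 200 or more. By its construction an SD of 2 values is lower at the median than one of 3. Under counting alone both are below the counting SD at the median, so a ratio of 1 is not the mark for either. Among exons with at least 50 reads per library and a mean PSI of 10-90%, the median SD over 3 libraries was 4.81 for 43 non-triplet exons. It was 6.23 for 135 triplet exons. An SD over 10 points was seen in 4 and 31 of these exons, or in 3 and 10 without replicate 2. Outside 10-90% no exon of that depth had an SD over 10 points.

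**Figure D5:**
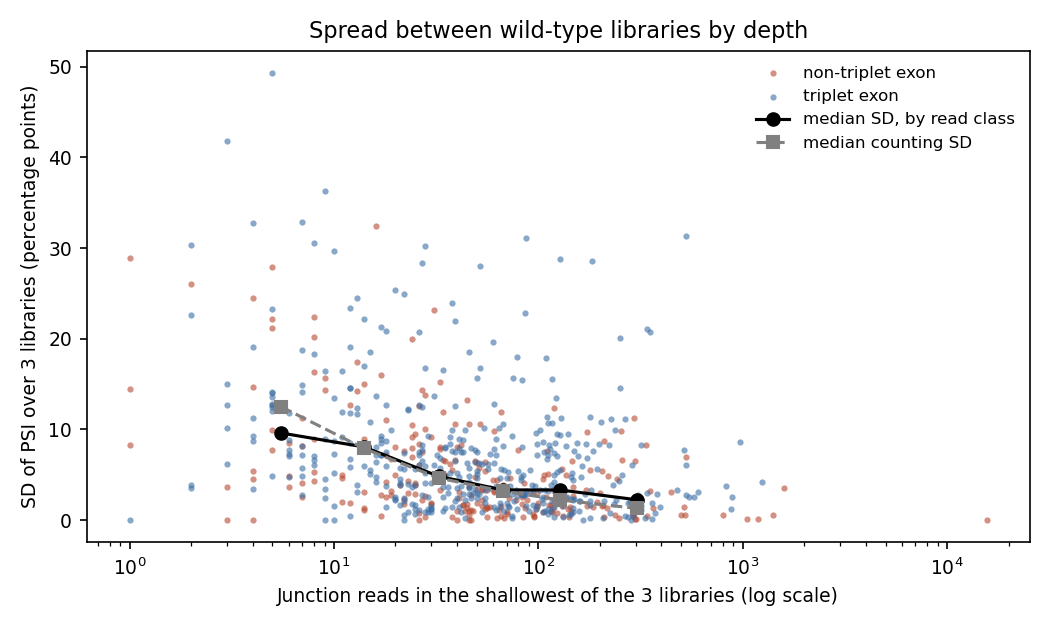
SD of PSI over the 3 wild-type libraries in percentage points (vertical axis) by the reads of the shallowest library (horizontal axis, log scale), in red for non-triplet and blue for triplet exons. The black line joins median SDs and the grey dashed line median counting SDs in 6 classes of reads, which part at high depth with 2.24 points beside 1.29 points.

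Among well covered exons, those that varied most did so through replicate 2 in most cases. Of the 31 exons with at least 50 reads per library whose PSI ranged over more than 20 points, replicate 2 was the value farthest from the median in 25, as the highest in 11 and the lowest in 14, and replicate 3 in the other 6. The 5 largest SDs among exons with at least 20 reads in every library follow, and some exons with fewer or unknown reads had larger ones. The 39-nt exon of gfat-1, which encodes the enzyme that starts hexosamine synthesis, had 60.2%, 20.4% and 82.3% on 527, 564 and 543 reads, an SD of 31.4 points beside a counting SD of 1.84. The 48-nt exon of C15F1.1 had 47.1%, 5.71% and 66.7%. The 96-nt exon of epi-1, a laminin alpha gene, had 42.4%, 85.3% and 31.1%, the 81-nt exon of ret-1, the reticulon gene, 36.2%, 80.8% and 26.8%, and the 174-nt exon of adt-1, a secreted metalloprotease gene, 77.9%, 89.3% and 32.1%. All 5 are triplet exons. Replicates 2 and 3 were the extremes in each. Replicate 2 lay farthest from the median in gfat-1 and C15F1.1, where it was low, and in epi-1 and ret-1, where it was high. In adt-1, on 244, 28 and 28 reads, replicate 3 lay farthest. What set these values apart was not tested.

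No spread was found where all reads of an exon were of 1 isoform. Reads are unknown at 100%, so among these only exons without an inclusion read can be known to have 20 reads in every library. The exons of ifc-1 (66 nt, 0 of 1062 reads), acl-7 (114 nt, 0 of 644), viln-1 (0 of 237), tba-7 (0 of 186) and tps-1 (53 nt, 0 of 154) were at 0% in every library. These counts allow shares of up to 0.282%, 0.466%, 1.27%, 1.61% and 1.95%. In all, 14 exons were at 0%, 7 non-triplet and 7 triplet, and 10 at 100%, 9 non-triplet and 1 triplet. The 14 had from 7 to 1062 reads, and the fewest reads allow a share of up to 42.9%. The reads of the 10 exons at 100% are unknown. The exons of ifc-1, acl-7, viln-1 and tba-7 themselves hold a stop codon in frame. That of tps-1 holds none, but it is non-triplet, and its inclusion gives 317 predicted residues against 1331 for skipping.

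The splice sites and introns of the exons differed from those of annotated internal exons as a whole. The last 7 bases of the upstream intron were TTTTCAG, the worm consensus, for 12.1% of the 782 exons and 25.3% of 92074 annotated internal exons. They were read on the transcribed strand only and at the splice site alone. The annotated exons are those of coding transcripts, untranslated ones included, and an exon counts once for each pair of flanking introns. Among the exons the share was 7.34% at a mean PSI under 20% (n = 218), 12.5% at 20-80% (n = 296) and 15.7% over 80% (n = 268). Split by frame it was 9.89%, 14.5% and 19.5% for non-triplet exons but 5.51%, 11.9% and 9.62% for triplet exons, which thus showed no steady order. Among the sequences shown above, dhhc-4 and K02F3.2 hold it. The first 6 bases of the downstream intron were GTAAGT for 8.44% of the exons and 14.8% of annotated exons, and the share by inclusion class was 11.01%, 8.45% and 6.34%. It fell over the classes in triplet exons, at 13.4%, 9.69% and 6.73%, and not steadily in non-triplet exons, at 7.69%, 4.35% and 6.10%. Microexons of 30 nt or less had GTAAGT in 29.5% of cases (18 of 61). GC in place of GT began the downstream intron for 1.28% of the exons, against 0.634% of annotated exons.

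Flanking introns were long. The upstream intron had a median of 207 nt and the downstream intron 273 nt, against 69 nt and 64 nt for annotated internal exons, while exons had a median of 102 nt against 151 nt. Upstream introns had medians of 154.5 nt, 191.5 nt and 306 nt at a mean PSI under 20%, at 20-80% and over 80%. For triplet exons the order was the same, with 197 nt at 20-80% and 235.5 nt over 80%, while for non-triplet exons the medians were 212 nt, 135 nt and 363.5 nt, the middle class being the shortest. Triplet lengths made up 58.6% of the exons against 39.6% of annotated internal exons, and lengths of 30 nt or less 7.80% against 0.239%. These shares describe the exons of a table limited by mutant inclusion, and they are not tested.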

How the data were processed

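RNA-Seq reads of the wild-type, smg-1 and smg-2 libraries were mapped by the authors with STAR 2.5.3a, and junctions were quantified with JUM 2.0.2, which asked for 5 junction reads per event. The deposited usage values are the fraction of an event's junction reads that skip the exon, and PSI was 100 times 1 minus that fraction. The deposited count values are reads over the skipping junction, and total reads were the count divided by its usage. Totals were whole in 2196 of 2196 values, to within a usage of 6e-05, and are unknown where no read skipped the exon. The counts used stand under mutant headings. The wild-type usage and these counts were both identical in all 620 exons shared by the smg-1 and smg-2 tables, which wild-type libraries alone share, so the usage headings were kept. INF usage was treated as missing, and 2 values were required. JUM's weighting of the 2 inclusion junctions is not given in the sources used here. The smg-1 usage was read only for the range of its means, and the other columns of mutant values, of the authors' PSI differences and of their p-values were not used, and 0 value columns remained unassigned.

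Groups came from the sample labels. Exon coordinates were matched to the Ensembl 115 annotation and the RefSeq genome of WBcel235, which named 2 genes deposited as spreadsheet dates. The authors' annotation release differs. Reading frames were taken from the longest annotated coding transcript, with the exon added or removed. Differences between non-triplet and triplet exons were taken within each library and tested by an exact sign-flip permutation over libraries. In simulated libraries with binomial reads and set PSI, the median difference between non-triplet and triplet exons was recovered. The root-mean-square SD there was also close to the root-mean-square counting SD. The other summaries were not checked in this way. Exons were named by fixed rules: exons of 8 genes chosen by name, in each of 8 gene lists the 3 deepest and, with 20 reads in every library, the highest and lowest exon, genes with 3 or more exons, and, with the same 20 reads, the 5 largest and smallest SDs, microexons at 0%, 50% and 100% and the exon of each Phase nearest to 50%, and the 10 deepest exons. The choice of all others followed a look at their values. Members, lists and rules were all chosen with earlier results of these data known. Limits from counts of 0 use 3 counts and cover counting error only, since reads carry no molecular identifiers. Alternatives changed the minimum of reads, the weight of inclusion reads, the exons and the libraries used. Python 3.11.15, numpy 2.4.6, pandas 2.3.3 and matplotlib 3.10.9 were used.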

Additional observations from a re-analysis of the deposited data

How the results depend on the processing

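No paired analysis was possible because the wild type was the only group of samples, although the differences between exon classes were themselves taken within each library. The higher median PSI of non-triplet exons and their lower share at 10-90% kept their direction under every alternative run, with ranges of 20.1 to 38.4 points and -32.1 to -14.8 points, the smallest sizes coming with the wild-type mean held to 5-95%. Leaving out 1 library gave 33.4 to 37.2 and -31.7 to -28.2 points. The sign-flip test cannot pass 0.05 with 3 libraries, whatever the setting.

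The share of non-triplet exons at a mean PSI of 40-60% (20.3%) was 16.7% with 20 reads in every library, 14.3% with 50 reads, 27.6% with inclusion reads halved, 25% with 1 exon per gene and 15.9% within the coding sequence, and 18.1% to 21.2% with 1 library left out. The median SD of 4.50 points was 3.51 with 20 reads, 3.12 with 50 reads and 6.55 with the wild-type mean held to 5-95%. Leaving out 1 library gave 2.57 (without replicate 2) to 4.08 points, and no SD can be had from summed reads. The median PSI of microexons (26.2%) was 21.3% with 20 reads, 19.4% with 50 reads, 15.1% with inclusion reads halved, 41.5% with them doubled (an alternative added after seeing the data) and 23.6% with 1 exon per gene, and 24.7% to 27.6% with 1 library left out. The share of non-triplet microexons (13.1%) was 10% with 50 reads and also at 27 nt or less, 13.3% with values in all 3 libraries, 13.8% with the wild-type mean held to 5-95%, 14.0% with 1 exon per gene, 11.7% within the coding sequence, 11.3% in the smg-2 table and 18.9% at 51 nt or less, and 13.1% to 13.3% with 1 library left out. The cause of these shifts was not tested. Depth limits single exons, since 515 of 782 were known to have at least 20 reads in every library and 333 at least 50. Reads are unknown where no read skipped the exon, for 28, 72 and 38 exons in replicates 1, 2 and 3. Such exons fail both minimums whatever their depth. The subsets by reads thus also leave out exons that were fully included in a library. PSI from summed reads leaves out libraries in which no read skipped the exon.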
